A study of Drosophila melanogaster with 35 samples.

Results

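The 85 genes described here are cytochrome P450 genes of Drosophila melanogaster. They were chosen by name alone, as every gene among the 17830 in the count table whose symbol is Cyp followed by a family number, letters and a gene number. Cyclophilins such as Cyp1 were left out, as was any P450 gene with another kind of symbol. The set held 83 protein-coding genes and 2 pseudogenes, and 80 of the 85 passed the filter on low counts, as did 12093 genes in all. Cyp9c1, Cyp313a2, Cyp313a5, Cyp4d14 and Cyp4d2 did not pass and were not tested.

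Cytochrome P450 enzymes hold a heme group with which they insert an oxygen atom from molecular oxygen into a substrate. Most insect P450 enzymes sit in the endoplasmic reticulum and receive electrons from the reductase Cpr, whereas those of the mitochondrial clan receive them through ferredoxins. Some make or inactivate the moulting hormone ecdysone or make cuticular hydrocarbons, others oxidise plant toxins and insecticides, and many have no assigned substrate. In fly heads the enzymes are found in several tissues, among them the fat body around the brain, glia and the antennae.

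Heads were collected from flies that carried KDM5, a histone demethylase of lysine 4 of histone H3, with 1 of 6 changes. A224T, L854F, D234G, R873W and Y874C each model a variant of human KDM5C found in Claes-Jensen syndrome, an intellectual disability disorder, and JmjC is a synthetic strain without demethylase activity. Each of these 6 strains had 3 RNA-seq libraries, and the wild-type KDM5 control (WT) had 5. A second experiment set neurons with kdm5 RNA interference (elav;RPL3-FLAG;kdm5RNAI) against control neurons (elav;RPL3-FLAG), in which the neuronal elav driver expresses a tagged ribosomal protein, with 3 immunoprecipitated and 3 input libraries of each. Flies were kept at 25 °C with 12 hours of light and taken 1 to 5 days after eclosion. No label names the sex of the flies, and nothing says whether replicates were separate cultures, so p-values may measure technical spread only.

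The head libraries held 16993554 to 32985353 counts each, apart from D234G 1 with 3803077 and D234G 2 with 4960383. They fell into 2 sets by roX2, a non-coding RNA of male dosage compensation, which was at 19.5 to 41.6 CPM (counts scaled by library size) in D234G, R873W, Y874C, WT 1 and WT 2, and at 0.151 to 0.999 CPM in A224T, L854F, JmjC, WT 3, WT 4 and WT 5. Each strain was therefore compared with all 5 WT libraries and with the WT libraries of its own set, and a gene is said here to have risen or fallen only where both comparisons called it in that direction (edgeR quasi-likelihood test, Benjamini-Hochberg adjusted p under 0.05 over all genes tested). Log2 folds are against all 5 WT libraries, with the standard error from the same fit, unless same-set WT is named. The WT sets themselves differed in 34 of the 80 P450 genes, 21 higher and 13 lower in set 2, where 14.4% of all genes were higher and 13.2% lower. Kdm5 transcript averaged between 454 CPM in JmjC heads and 572 CPM in R873W heads, and since the strains carry changed residues its level is no check of the labels. Neuronal markers summed to 3846 to 6911 CPM per library, with none of the 8 at 0 in a whole group.

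The CYP3 clan, which holds the families Cyp6, Cyp9, Cyp28, Cyp308, Cyp309, Cyp310 and Cyp317, had 40 genes, and the CYP4 clan had 32. The mitochondrial clan had 9 genes and the CYP2 clan 4. Cyp6 with 25 genes and Cyp4 with 22 were the largest families. In all, 46 of the 85 genes lay within 10000 bases of another P450 gene, in 16 clusters of up to 9 genes. Per kilobase of gene span, introns included, the highest mean levels over the 7 groups were those of Cyp6d5 at 112 CPM, Cyp28d1 at 107, Cyp9f2 at 86, Cyp313a1 at 80.6 and Cyp6a2 at 69.3. Cyp6a20, which has been linked to aggressive behaviour in males, followed at 68.7 CPM per kilobase and Cyp6g1, an enzyme that metabolises DDT and neonicotinoids, at 67.7. Cyp4e3 at 64.1, Cyp4g1 at 62 and Cyp9b2 at 61.5 CPM per kilobase completed the first 10. Cyp4g1 owed its place to single libraries, and was 13th in order at 45.1 CPM per kilobase without D234G 1 and 48.3 without R873W 3. All the P450 genes together summed to 3471 ± 146 CPM in A224T, 3376 ± 170.3 in L854F, 4013 ± 426 in JmjC, 2989 ± 491 in D234G, 3160.1 ± 250.2 in R873W and 2875 ± 182 in Y874C heads, against 3215 ± 473 CPM in WT heads (SD, n = 3 per strain and 5 for WT).

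The P450 genes changed in different directions in the 6 strains. In JmjC heads 23 of the 80 genes rose and 4 fell, which is 28.7% and 5% of them, beside 8.87% and 10.8% of all genes. In D234G heads 6 rose and 21 fell, or 7.5% and 26.2%, beside 18.2% and 8.57% of all genes. Y874C heads had 2 that rose and 9 that fell, or 2.5% and 11.2%, beside 4.29% and 3.26% of all genes. R873W heads had 8 that rose and 14 that fell, or 10% and 17.5%, beside 14.2% and 14% of all genes. A224T heads had 7 and 8, beside 5.45% and 5.33% of all genes, and L854F heads had 4 and 4, beside 3.36% and 2.51%. The median log2 fold of the tested P450 genes was 0.30 in JmjC, −0.40 in D234G, −0.20 in Y874C, −0.19 in R873W, 0.059 in A224T and 0.10 in L854F, while the median over all genes was between −0.012 and 0.023 in each strain. Against same-set WT the medians were 0.22, −0.16, −0.092, −0.086, 0.014 and 0.065 in the same order of strains.

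Some counts rested on single libraries. Leaving out each library in turn kept 16 of the 23 rises in JmjC called every time, and 13 of the 21 falls but 1 of the 6 rises in D234G. In R873W 8 of the 14 falls and 1 of the 8 rises were kept, in Y874C 3 of the 9 falls and 1 of the 2 rises, in A224T 3 of the 7 rises and 4 of the 8 falls, and in L854F none of the 4 rises and 2 of the 4 falls. The total was 13 without WT 1 and 12 without WT 2 in R873W, 7 without WT 1, 6 without WT 2 and 5 without Y874C 3 in Y874C, and 8 without A224T 3 in A224T. In L854F it was 2, 4 and 3 without L854F 1, 2 and 3, and 4 and 5 without WT 4 and WT 5. Of the D234G libraries, D234G 3 alone (without the shallow 1 and 2) gave 6 rises and 14 falls, and D234G 2 alone gave 1 rise and 9 falls.

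**Figure D1:**
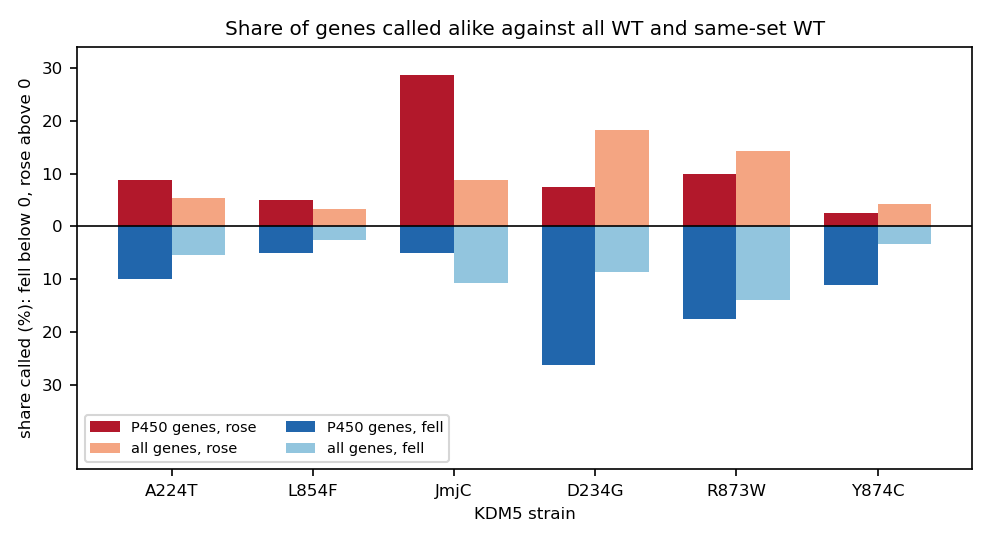
Share in percent of the 80 tested P450 genes and of all 12093 tested genes that were called in both comparisons, for each strain; bars above 0 are genes that rose and bars below 0 genes that fell. The P450 bar for rises in JmjC reaches 28.7% beside 8.87% for all genes, and the P450 bar for falls in D234G reaches 26.2% beside 8.57%.

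Against all 5 WT libraries alone, 31 P450 genes were called in JmjC (26.8% of all genes were), 46 in D234G (44.2%), 24 in Y874C (19.3%), 35 in R873W (43.7%), 20 in A224T (14.8%) and 11 in L854F (7.79%). Against same-set WT the counts were 35 in JmjC (25.6%), 32 in D234G (31%), 20 in Y874C (12.8%), 35 in R873W (37.7%), 18 in A224T (17.7%) and 13 in L854F (11.3%). The shares called in R873W, 35 of 80 each time, were close to the background of all genes.

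Markers of cell types that can hold P450 transcripts also differed between the libraries, and in whole heads fewer cells of a type and less RNA per cell cannot be told apart. The 9 fat body markers summed to 4327 to 4571 CPM in D234G heads, against 6538 to 6874 CPM in the WT libraries of its set, with 2 markers that rose and 3 that fell. The 7 oenocyte markers summed to 1266 to 1379.6 CPM in D234G heads, with 1 of them at 0 in all 3 libraries, against 1588 to 1788 CPM in WT of its set. Of the 7, 2 rose and 2 fell in D234G heads, and their median log2 fold was 0.10, or 0.12 against same-set WT. Of 9 hemocyte markers, 5 fell in D234G heads, where the 9 summed to 767 to 1051 CPM, against 1131 to 1275 CPM in WT of its set. In JmjC heads 4 of the 9 hemocyte markers rose, and 4 of 8 neuronal markers fell, with sums of 1977 to 2216 CPM and 3846 to 4263 CPM. WT of its set had 1478 to 1597 CPM and 4639 to 5533 CPM. Fat body markers in JmjC heads summed to 9331 to 11347 CPM, below the 13636 to 17906 CPM of WT of its set, and 1 of the 9 rose. The 10 antenna markers summed to 357 to 411 CPM in D234G, 484 to 583 in R873W and 444 to 536 in Y874C heads, against 714 to 774 CPM in WT of their set, and 2 of the 10 fell in each. Their median log2 fold against same-set WT was −0.37 in D234G and −0.56 in Y874C. In R873W it was 0.45, so the lower sum there does not describe all the markers. Of 8 glial markers 3 rose and 1 fell in D234G heads, which had 2901 to 3097 CPM, and 3 rose in R873W heads with 2725 to 3492 CPM, against 2514 to 2576 CPM in WT of their set. The 3 female fat body markers, Yp1, Yp2 and Yp3, differed between the sets and within them. They summed to 17983 to 22265 CPM in R873W, 14686 to 19099 in Y874C and 7633 to 10238 in D234G heads. WT of their set had 7790.1 to 9145 CPM. In JmjC heads they summed to 28919 to 36112 CPM, against 42102 to 50490.3 CPM in WT of its set. None of them rose or fell in any strain. The part of these cell types in the P450 results was not tested.

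By clan, the CYP3 genes moved in opposite directions in the strains with the most calls. In JmjC heads 11 of 39 tested rose and none fell, or 28.2% and 0%, beside 8.87% and 10.8% of all genes. In D234G heads 3 rose and 13 fell, or 7.69% and 33.3%, beside 18.2% and 8.57% of all genes. Within the clan, the Cyp6 family had 6 that rose and none that fell of 25 in JmjC (24% and 0%), and 2 and 11 in D234G (8% and 44%). It had 2 and 9 in R873W (8% and 36%), beside 14.2% and 14% of all genes. In Y874C it had none and 5 (0% and 20%), beside 4.29% and 3.26% of all genes. The mitochondrial clan of 9 genes had 5 that rose and 1 that fell in JmjC (55.6% and 11.1%), and none that rose and 5 that fell in D234G (0% and 55.6%). In A224T 3 of the 9 rose and 2 fell, beside 5.45% and 5.33% of all genes. In L854F, R873W and Y874C none rose and 2 fell, or 22.2%, beside 2.51%, 14% and 3.26% of all genes. The CYP4 clan had 5 that rose and 3 that fell of 28 in JmjC (17.9% and 10.7%), beside 8.87% and 10.8% of all genes. In D234G 3 rose and 2 fell (10.7% and 7.14%), beside 18.2% and 8.57% of all genes. In Y874C 2 rose and none fell (7.14% and 0%), beside 4.29% and 3.26% of all genes. The falls in JmjC and D234G were thus close to the shares of all genes. In R873W 5 of the 28 rose and 2 fell (17.9% and 7.14%), beside 14.2% and 14% of all genes. With clans of this size a single gene moves a share by several percentage points. Across strains 47 of the 80 tested genes rose or fell at least once, 33 never did, and 10 rose in some strains and fell in others. The same count was not made over all genes, so these numbers cannot be read as particular to P450 genes.

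**Figure D2:**
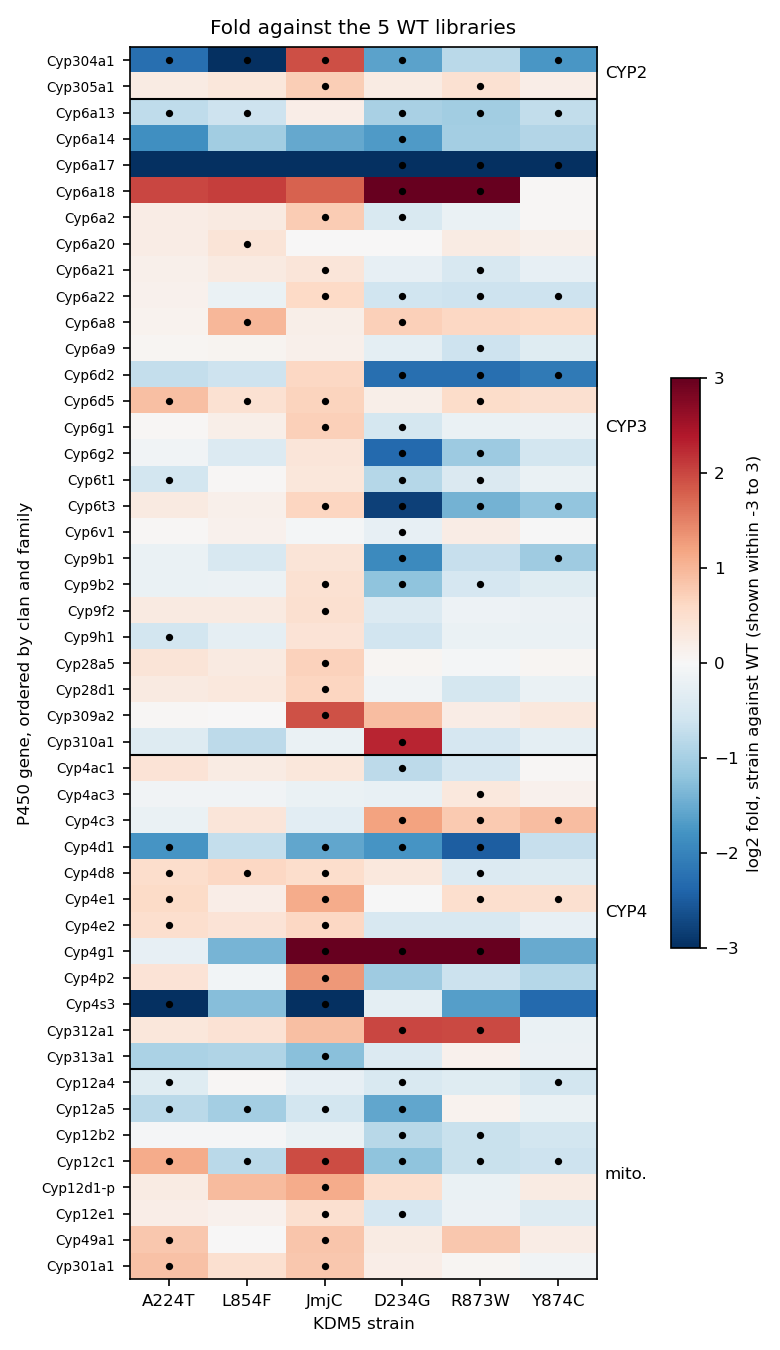
Log2 fold against all 5 WT libraries (colour, limited to −3 to 3) of the 47 P450 genes called in both comparisons in at least 1 strain, in rows by clan, with the 6 strains in columns; dots mark the calls, and the colours of Cyp6a18 are fitted against 1 WT count. In the JmjC column 23 of the dots stand on rises and 4 on falls, and in the D234G column 6 and 21.

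Among the mitochondrial enzymes, Cyp12c1 changed in every strain but not in one direction. The gene lies at 3L:18684259-18686319 (dm6, minus strand). It had 28.8, 36.1 and 21.9 CPM in JmjC heads and 17.1, 12.1 and 19.8 CPM in A224T heads, against 8.85, 8.76, 6.87, 7.05 and 5.98 CPM in WT heads. All 6 of those strain libraries were above all 5 WT libraries. It had 4.49, 4.36 and 3.98 CPM in L854F, 4.17, 2.66 and 3.19 CPM in D234G, 4.09, 4.45 and 5.64 CPM in R873W and 5.89, 4.13 and 4.81 CPM in Y874C heads, all below the lowest WT library. Its log2 fold reached 1.95 ± 0.18 in JmjC (adjusted p = 4.6e-07) and 1.12 ± 0.18 in A224T (adjusted p = 0.000337). It was −1.20 ± 0.23 in D234G (adjusted p = 0.000335). The falls were smaller elsewhere and depended on single libraries, at −0.81 ± 0.2 in L854F (adjusted p = 0.0141), −0.67 ± 0.19 in R873W (adjusted p = 0.00949) and −0.61 ± 0.19 in Y874C (adjusted p = 0.0315). Without L854F 3 the L854F fold was −0.78 (adjusted p = 0.0664), without R873W 1 the R873W fold was −0.56 (adjusted p = 0.0564), and without Y874C 2 the Y874C fold was −0.48 (adjusted p = 0.166). Compared directly, A224T exceeded L854F by 1.93 ± 0.22 (adjusted p = 3.15e-05) and JmjC exceeded L854F by 2.76 ± 0.22 (adjusted p = 1.72e-07).

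Cyp12a5, at 3R:19132648-19134704 on the plus strand, fell in 4 strains. It had 9.19, 9.72 and 9.39 CPM in A224T heads, 8.92, 7.94 and 7.52 in L854F, 11.2, 12.4 and 9.89 in JmjC and 6.77, 4.5 and 5.51 in D234G, against 16.4, 15.3, 16.9, 17.5 and 16.3 CPM in WT heads. None of these strain libraries reached the lowest WT library. R873W heads, at 16.7, 16.9 and 19.2 CPM, and Y874C heads, at 16.8, 13.7 and 12.4 CPM, overlapped WT. Log2 folds were −1.57 ± 0.13 in D234G (adjusted p = 1.69e-07), −1.02 ± 0.11 in L854F (adjusted p = 1.17e-05), −0.80 ± 0.11 in A224T (adjusted p = 8.1e-05) and −0.56 ± 0.11 in JmjC (adjusted p = 0.00088). D234G was lower than R873W by a log2 fold of −1.67 ± 0.14 (adjusted p = 1.02e-07) and lower than Y874C by −1.37 ± 0.14 (adjusted p = 2.09e-06). Its neighbour Cyp12a4, whose overexpression gives resistance to the insecticide lufenuron, lies at 3R:19135158-19137136 on the same strand. Cyp12a4 fell in D234G with a log2 fold of −0.45 ± 0.1 (adjusted p = 0.00126), in Y874C with −0.54 ± 0.098 (adjusted p = 0.000851) and in A224T with −0.36 ± 0.098 (adjusted p = 0.0186). Each of these calls depended on single libraries. In A224T the adjusted p was 0.0959 without A224T 1 and 0.0727 without A224T 3. Against same-set WT it was 0.072, 0.102 and 0.104 in D234G without D234G 3, WT 1 and WT 2, and 0.0551, 0.0792 and 0.133 in Y874C without Y874C 3, WT 1 and WT 2. Cyp12b2 fell in D234G heads, at 29.9, 33.9 and 36.6 CPM against 45.5, 50.8, 74.5, 68 and 61.3 CPM in WT heads, with a log2 fold of −0.83 ± 0.13 (adjusted p = 4.69e-05). It fell in R873W heads too, with −0.66 (adjusted p = 0.00029), a call that did not hold with each library left out.

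The CYP2 clan had 4 genes, and its Cyp304a1, at 3R:12963791-12965923 on the plus strand, differed between the strains. It had 10.8, 20 and 8.96 CPM in JmjC heads, against 6.93, 4.64, 2.45, 2.02 and 1.21 CPM in WT heads. In A224T heads it had 0.9, 0.391 and 0.85 CPM and in L854F heads 0.417, 0.473 and 0.097 CPM, below all WT libraries. JmjC exceeded all 5 WT libraries by a log2 fold of 1.93 ± 0.44 (adjusted p = 0.0029) and same-set WT by 2.80 ± 0.41 (adjusted p = 6.36e-05). L854F was lower than WT by −3.39 ± 0.59 (adjusted p = 0.00136). A224T was lower by −2.27 against all WT (adjusted p = 0.00705) and by −1.40 against same-set WT (adjusted p = 0.0354), which was lost without any 1 of A224T 1, A224T 2, A224T 3, WT 3 or WT 4 (adjusted p of 0.0573, 0.145, 0.0648, 0.114 and 0.092). Between strains, JmjC exceeded L854F by 5.32 ± 0.64 (adjusted p = 1.33e-05) and A224T by 4.20 ± 0.59 (adjusted p = 0.000361). The WT libraries of the 2 sets differed as well, by −1.61 in set 2 (adjusted p = 0.00956, and 0.112 without WT 1), so the values in the other set are given by library. Cyp304a1 had 1.04, 1.02 and 1.24 CPM in D234G, 2.36, 2.43 and 1.15 in R873W and 1.15, 0.683 and 1.26 in Y874C heads, against 6.93 and 4.64 CPM in WT 1 and WT 2. It fell in D234G with a log2 fold of −1.61 (adjusted p = 0.0268) and in Y874C with −1.75 (adjusted p = 0.0191). Neither call held with each library left out. Cyp305a1, the other CYP2 gene that rose in JmjC heads, had 86.9, 99.6 and 79.3 CPM there, against 45.9, 48, 62.9, 55.1 and 53 CPM in WT heads, a log2 fold of 0.74 ± 0.14 (adjusted p = 0.000547).

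In the CYP3 clan 8 of the 11 rises in JmjC heads held with each library left out. The exceptions were Cyp9b2, Cyp9f2 and Cyp6a21, whose calls were lost without JmjC 2 (adjusted p of 0.0554 and 0.102 against all WT for Cyp9b2 and Cyp6a21, and 0.0909 against same-set WT for Cyp9f2), among other libraries. Cyp6g1 had 292, 328 and 268 CPM in JmjC heads, against 174, 179, 201, 176 and 173 CPM in WT heads, and the groups did not overlap. Its log2 fold was 0.71 ± 0.085 (adjusted p = 7.54e-06). Cyp6a2, another enzyme raised in insecticide-resistant strains, had 171, 219 and 164 CPM in JmjC heads, against 102, 109.7, 131, 115 and 94.2 CPM in WT heads, a log2 fold of 0.75 ± 0.11 (adjusted p = 5.93e-05). The Cyp28 family, which responds to plant toxins in several Drosophila species, rose at Cyp28a5 by 0.70 ± 0.1 (adjusted p = 6.04e-05) and at Cyp28d1 by 0.65 ± 0.14 (adjusted p = 0.00163). Cyp28a5 had 182, 201 and 162 CPM in JmjC heads, above the 100.2, 96.6, 129.7, 124 and 109 CPM of WT heads. Cyp309a2 rose by more, with 37.3, 41.1 and 22.8 CPM in JmjC heads against 10.5, 10.4, 7.47, 7.05 and 9.84 CPM in WT heads. Its log2 fold was 1.90 ± 0.25 (adjusted p = 2.32e-05), and JmjC exceeded A224T by 1.85 ± 0.3 (adjusted p = 0.00116). The gene with the highest level per kilobase, Cyp6d5, at 3R:14029228-14031483 on the plus strand, rose in A224T, L854F and R873W heads too. It had 287 to 421 CPM in the A224T libraries and 289, 294 and 278 CPM in JmjC heads, against 201, 191, 205, 182 and 127 CPM in WT heads, with log2 folds of 0.90 ± 0.12 (adjusted p = 7.1e-05) and 0.66 ± 0.12 (adjusted p = 0.000579). Smaller rises of 0.45 in L854F (adjusted p = 0.0292) and 0.54 in R873W (adjusted p = 0.00201) depended on single libraries. Without L854F 3 the L854F fold was 0.42 (adjusted p = 0.116). Without WT 2 the R873W fold against same-set WT was 0.36 (adjusted p = 0.2).

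In D234G, R873W and Y874C heads the CYP3 genes Cyp6t3 and Cyp6d2, both on chromosome arm 2R, fell. Cyp6t3 has been linked to ecdysone synthesis in the larval prothoracic gland. It had 2.08, 1.02 and 2.11 CPM in D234G heads, 4.98, 4.85 and 4.58 CPM in R873W and 6.41, 4.57 and 6.04 CPM in Y874C, against 10.6, 11.6, 12.9, 13.7 and 15.3 CPM in WT heads. Every library of the 3 strains was below every WT library, and D234G was the lowest of the 3. The log2 fold was −2.80 ± 0.19 in D234G (adjusted p = 1.98e-08), −1.41 ± 0.15 in R873W (adjusted p = 1.56e-06) and −1.18 ± 0.15 in Y874C (adjusted p = 2.78e-05). D234G was lower than R873W by −1.38 ± 0.21 (adjusted p = 8.1e-05) and lower than Y874C by −1.62 ± 0.21 (adjusted p = 3.74e-05). In JmjC heads Cyp6t3 rose, with 19.1, 18.7 and 22.1 CPM and a log2 fold of 0.64 ± 0.14 (adjusted p = 0.00192).

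Cyp6d2 had 0.781, 2.45 and 1.13 CPM in D234G heads, 1.6, 1.21 and 1.4 CPM in R873W and 1.41, 1.93 and 1.26 CPM in Y874C, against 8.02, 5.74, 8.55, 6.66 and 4.83 CPM in WT heads. All 9 libraries were below all 5 WT libraries. Log2 folds were −2.26 ± 0.38 in D234G (adjusted p = 9.88e-05), −2.26 ± 0.33 in R873W (adjusted p = 4.29e-05) and −2.13 ± 0.33 in Y874C (adjusted p = 0.000192).

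Cyp6t3 lies beside Cyp6g2 and Cyp6g1, and in D234G heads all 3 neighbours fell. Cyp6g2 had 1.04, 1.43 and 1.18 CPM in D234G heads and 2.89, 3.05 and 2.76 CPM in R873W heads, against 9 and 9.65 CPM in WT 1 and WT 2 and 3.23, 4.26 and 4.53 CPM in WT 3, 4 and 5. Its log2 fold in D234G was −2.33 ± 0.34 (adjusted p = 2.87e-05), and −2.93 ± 0.19 against same-set WT (adjusted p = 1.22e-08). Cyp6g1 had 115, 132 and 131 CPM in D234G heads, a smaller log2 fold of −0.52 ± 0.089 (adjusted p = 0.000133). In JmjC heads Cyp6g1 and Cyp6t3 rose, while Cyp6g2, at 7.63, 7.4 and 8.64 CPM, was called against same-set WT only (0.98 ± 0.14, adjusted p = 6.73e-05). Cyp6g1 and Cyp6g2 overlap by 94 bases on opposite strands, and whether counting used the strand is not stated, so reads in the overlap cannot be told apart. The adjacent pair Cyp9b1 and Cyp9b2 also fell in D234G heads. Cyp9b1 had 6.25, 8.18 and 8.09 CPM there, against 23.2, 23.6, 36.2, 29.6 and 30.2 CPM in WT heads, a log2 fold of −1.90 ± 0.21 (adjusted p = 2.74e-06). Cyp9b2 had 56.2, 58.9 and 57.3 CPM in D234G heads, against 140.0, 138, 147, 119 and 118 CPM in WT heads, a log2 fold of −1.20 ± 0.13 (adjusted p = 2.74e-06). In R873W heads Cyp9b2 fell with −0.50 (adjusted p = 0.00342). Cyp9b1 fell in Y874C heads with −1.06 (adjusted p = 0.000424), but against same-set WT its adjusted p was 0.0564 without WT 1. In JmjC heads Cyp9b2 had 199.5, 198 and 145 CPM, the last of them inside the range of WT.

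Cyp6a13 fell in the 5 strains other than JmjC. It had 26.2, 16.1 and 21.2 CPM in A224T, 23.7, 26.2 and 20.6 in L854F, 17.7, 18.6 and 18.9 in D234G, 16.8, 20.3 and 15.4 in R873W and 21.6, 22.2 and 20.7 in Y874C heads, against 38.9, 38.3, 40.9, 32 and 30.2 CPM in WT heads. The log2 fold was −0.77 ± 0.15 in A224T (adjusted p = 0.00205), −0.97 ± 0.16 in D234G (adjusted p = 0.000108), −1.04 ± 0.15 in R873W (adjusted p = 4.36e-05) and −0.74 ± 0.15 in Y874C (adjusted p = 0.00203). In L854F it was −0.62 (adjusted p = 0.0149), and −0.55 without L854F 3 (adjusted p = 0.0815). JmjC heads, at 45.6, 46.6 and 31.3 CPM, exceeded A224T heads by a log2 fold of 0.96 ± 0.17 (adjusted p = 0.00211) and L854F heads by 0.81 ± 0.17 (adjusted p = 0.00169).

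In the CYP4 clan the falls and rises sat side by side in the same strains. Cyp4d1, at X:2159145-2162180 on the minus strand, had 2.51, 2.64 and 3.87 CPM in A224T, 3.76, 3.75 and 2.93 in JmjC, 4.69, 2.25 and 2.52 in D234G and 1.69, 2.02 and 1.87 in R873W heads, against 10.2, 10.8, 12.8, 10.1 and 7.54 CPM in WT heads. All libraries of these strains lay below all WT libraries, as did those of L854F, at 7.2, 6.36 and 5.33 CPM, and of Y874C, at 6.78, 7.21 and 5.08 CPM. Cyp4d1 fell with a log2 fold of −2.47 ± 0.23 in R873W (adjusted p = 2.54e-07), −1.78 ± 0.24 in D234G (adjusted p = 1.67e-05), −1.77 ± 0.22 in A224T (adjusted p = 2.42e-05) and −1.56 ± 0.22 in JmjC (adjusted p = 3.5e-05). In L854F and Y874C Cyp4d1 was called against all WT alone, at −0.71 (adjusted p = 0.0398) and −0.69 (adjusted p = 0.0222). Y874C heads exceeded R873W heads by 1.77 ± 0.24 (adjusted p = 0.000102). The residues changed in these strains are neighbours, and 8 P450 genes differed between Y874C and R873W, 2 higher and 6 lower in Y874C, where 9.62% of all genes were higher and 11% lower. That total was 5 without R873W 1, 2 without Y874C 2 and 3 without Y874C 3.

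Cyp4s3, at X:15113302-15116542 on the minus strand, had 0.284, 0.44 and 0.33 CPM in A224T heads and 0.679, 0.544 and 0.978 CPM in JmjC heads, against 2.38, 3.6, 11.8, 7.54 and 6.58 CPM in WT heads. Cyp4s3 fell with a log2 fold of −4.16 ± 0.62 in A224T (adjusted p = 0.000163) and −3.11 ± 0.57 in JmjC (adjusted p = 0.000486). Cyp4c3, at 3R:30894038-30900688 on the plus strand, rose in the other set. It had 25.8, 23.3 and 17.3 CPM in D234G, 15.8, 16.8 and 16 in R873W and 14.9, 19 and 19.6 in Y874C heads, against 10.4, 8.29, 9.38, 9.45 and 9.66 CPM in WT heads, with no overlap. The log2 fold was 1.21 ± 0.12 in D234G (adjusted p = 1.22e-06), 0.92 ± 0.12 in Y874C (adjusted p = 2.56e-05) and 0.78 ± 0.12 in R873W (adjusted p = 4.69e-05). Cyp4e1 rose in JmjC heads, with 18.7, 27.2 and 21.5 CPM, and in A224T heads, with 16.2, 17.5 and 12.8 CPM, against 10.4, 9.8, 12, 10.3 and 9.54 CPM in WT heads. Its log2 fold was 1.11 ± 0.11 in JmjC (adjusted p = 1.51e-06) and 0.58 ± 0.12 in A224T (adjusted p = 0.0023). Cyp4e1 rose in R873W and Y874C heads as well, by 0.51 (adjusted p = 0.0019) and 0.48 (adjusted p = 0.00643). Those 2 calls depended on single libraries, with an adjusted p against same-set WT of 0.0833 and 0.185 without WT 2. Cyp4p2 had 23, 24.9 and 23.3 CPM in JmjC heads, above all of the 5.8, 5.94, 15, 11.2 and 10.6 CPM in WT heads, a log2 fold of 1.29 ± 0.26 (adjusted p = 0.00113).

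**Figure D3:**
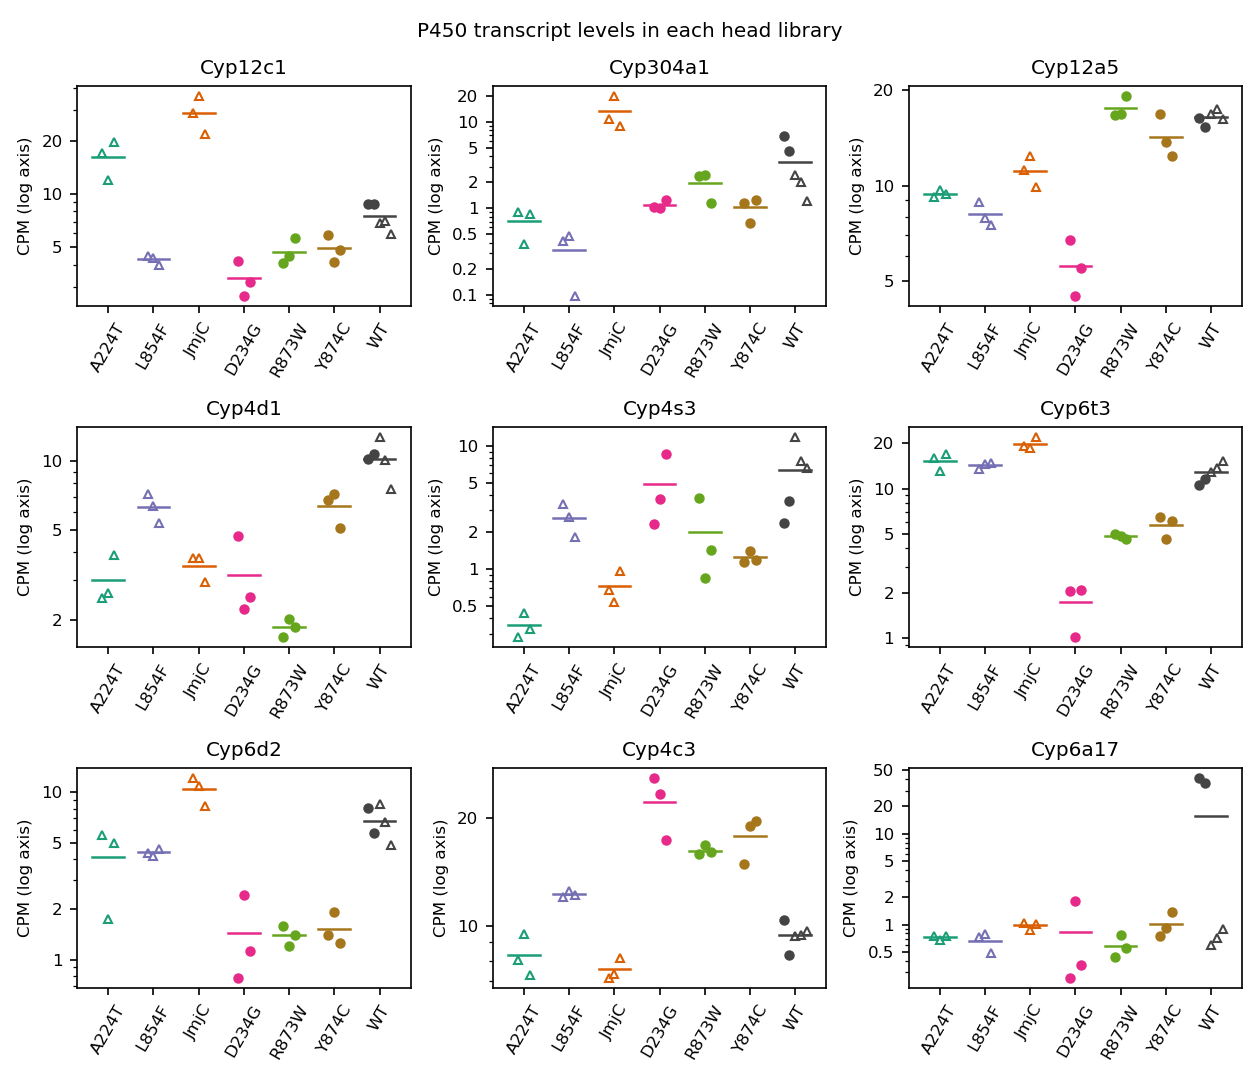
CPM in each library (log axis) of 9 P450 genes, with the 6 strains to the left of WT; filled circles are libraries of the set with high roX2, open triangles those of the set with low roX2, and lines are group means. Cyp12c1 is above WT in JmjC and A224T and below it in the other 4 strains, Cyp6t3 and Cyp6d2 are lowest in D234G, R873W and Y874C, and Cyp6a17 is high only in WT 1 and WT 2.

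Cyp6a17, which has been linked to temperature preference, shows how much the choice of WT libraries matters. It had 41.2 and 36.1 CPM in WT 1 and WT 2, and between 0.26 and 1.84 CPM in each of the other 21 head libraries. D234G heads had 0.26, 1.84 and 0.361 CPM, R873W heads 0.444, 0.764 and 0.552 CPM, Y874C heads 0.741, 0.92 and 1.38 CPM, and WT 3, 4 and 5 had 0.598, 0.71 and 0.905 CPM. Against same-set WT the log2 fold was therefore −5.80 ± 0.42 in D234G (adjusted p = 4.59e-08), −6.03 ± 0.38 in R873W (adjusted p = 1.47e-09) and −5.25 ± 0.36 in Y874C (adjusted p = 1.37e-08). A224T, L854F and JmjC gave −0.0084, −0.15 and 0.41 against their own WT libraries (adjusted p of 0.996, 0.888 and 0.482). The WT libraries themselves differed by −5.70 ± 0.38 in set 2 (adjusted p = 2.56e-09), close to the size of the difference between those 3 strains and WT 1 and WT 2. Cyp4d21, which is needed for male courtship, also followed the sets and not the strains, with 61.3 to 124 CPM in the 11 libraries of set 1 and 10.6 to 18.2 CPM in the 12 of set 2.

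A few genes were high in single libraries. Cyp4g1, at X:467057-469335 on the minus strand, makes cuticular hydrocarbons in oenocytes. It had 1032, 0 and 449 CPM in D234G, 111, 97.3 and 759 CPM in R873W and 191, 174 and 62.6 CPM in JmjC heads, against 7.81, 27.9, 1.26, 14.9 and 7.12 CPM in WT heads. The count of 0 in D234G 2 stands for at most 0.613 CPM, the level of 3 counts in that library, with counting error only. Its log2 fold was 3.58 ± 1 in JmjC (adjusted p = 0.0125), where the 3 libraries lay above every WT library, but the same-set value of 4.18 (adjusted p = 0.0172) gave an adjusted p of 0.0668 without WT 3 and 0.0597 without WT 5. The fold was 5.37 ± 1.1 in D234G (adjusted p = 0.000488) and 4.76 ± 1 in R873W (adjusted p = 0.00141). Against same-set WT the D234G fold was 3.65 without D234G 1 (adjusted p = 0.0592), 4.14 without WT 1 (adjusted p = 0.136) and 5.92 without WT 2 (adjusted p = 0.0681). The R873W fold was 2.53 without R873W 3 (adjusted p = 0.128), 3.53 without WT 1 (adjusted p = 0.171) and 5.33 without WT 2 (adjusted p = 0.0836).

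Cyp312a1, at 3L:18128940-18132689 on the minus strand, had 25.8, 3.07 and 19.3 CPM in D234G and 4.18, 5.57 and 37.2 CPM in R873W heads, against 3.67, 4.43, 3.94, 3.6 and 4.29 CPM in WT heads. Its log2 fold in R873W was 1.97 (adjusted p = 0.00538), and 0.27 without R873W 3 (adjusted p = 0.622). Cyp6a18 had 25, 0 and 61 counts in D234G heads and 3, 19 and 67 counts in R873W heads, against 1 count over the 5 WT libraries, too few to give a fold. It was still called in both comparisons, and is among the 6 rises counted in D234G and the 8 in R873W. These 3 genes were highest in D234G 1, D234G 3 and R873W 3, the libraries with the most male reproductive transcript. The 21 male reproductive markers summed to 869, 0.818 and 516 CPM in D234G and 13.4, 132 and 417 CPM in R873W heads, against 0.785 to 0.939 CPM in WT heads. In D234G heads 19 of 19 tested markers rose, and in R873W heads 16. Gut markers summed to 634, 14.3 and 127 CPM in D234G heads, against 13.8 to 17.3 CPM in WT heads. In JmjC heads, where Cyp4g1 was high as well, the male reproductive markers summed to 1.3 to 1.85 CPM and none rose. Gut markers summed to 23.5, 50.1 and 15.3 CPM in JmjC 1, 2 and 3, and 1 of 10 tested rose. Of the 7 oenocyte markers 2 rose in JmjC heads. These markers summed to 2251 to 2820.1 CPM there, against 3036 to 3677 CPM in WT of its set. The source of the Cyp4g1 transcript was not tested.

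**Figure D4:**
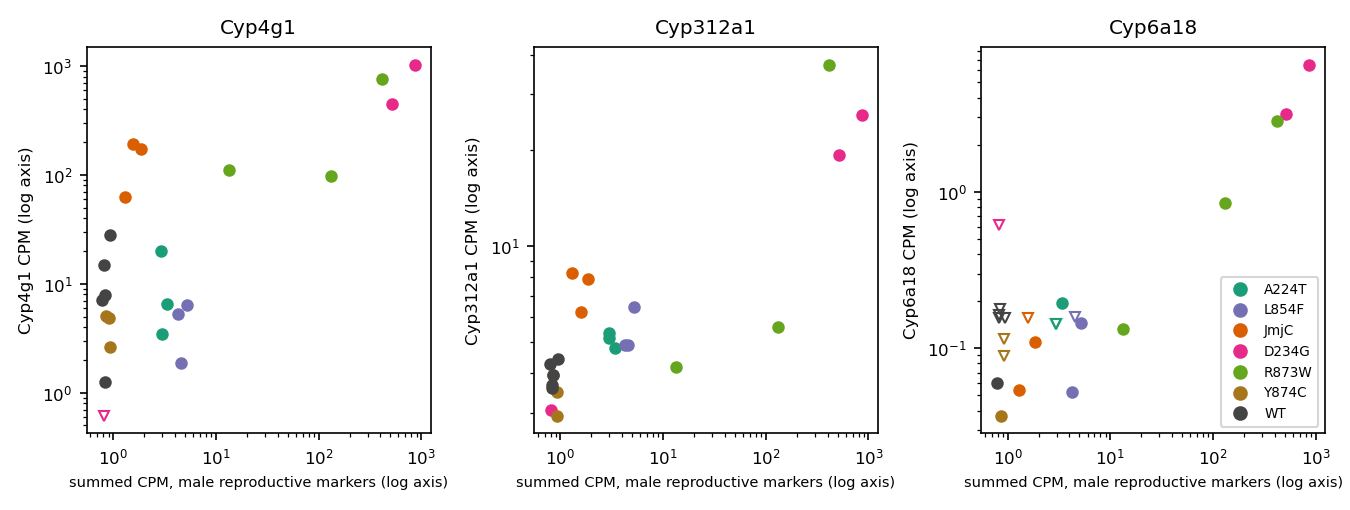
CPM of Cyp4g1, Cyp312a1 and Cyp6a18 in each head library against the summed CPM of 21 male reproductive marker genes, both on log axes; open triangles that point down are libraries with 0 counts, drawn at the level of 3 counts. D234G 1, D234G 3 and R873W 3 lie at the upper right in each panel, and the JmjC libraries have high Cyp4g1 beside marker sums of 1.3 to 1.85 CPM.

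Strains of one set were also compared directly, with no WT library in the contrast. JmjC exceeded A224T in 13 P450 genes and was lower in none, where 3.08% of all genes were higher and 2.78% lower, but the total was 7 without A224T 2, 8 without JmjC 1 and 5 without JmjC 2. JmjC differed from L854F in 26 genes, 21 higher and 5 lower, where 9.74% of all genes were higher and 11.2% lower. A224T differed from L854F in 7, 2 higher and 5 lower, where 1.5% of all genes were higher and 1.91% lower, with 2 left without A224T 1, 3 without A224T 3, 1 without L854F 1 and 3 without L854F 2. D234G differed from R873W in 21, 6 higher and 15 lower, where 23% of all genes were higher and 13.7% lower. It differed from Y874C in 23, 8 higher and 15 lower, where 19.3% of all genes were higher and 9.77% lower.

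Cyp18a1, Cyp303a1, Cyp6w1 and Cyp4g15, genes of known role, neither rose nor fell in any strain. Cyp18a1, which inactivates ecdysone, had log2 folds between −0.40 and 0.28 against all WT, and its one call was against same-set WT in R873W (0.71 ± 0.22, adjusted p = 0.0174). Cyp303a1, needed for the development of sensory bristles, lay between −0.069 and 0.47. Cyp6w1, which metabolises DDT, lay between −0.40 and 0.28, with the lower end in D234G called against all WT alone (adjusted p = 0.0174). Cyp4g15, the nervous system relative of Cyp4g1, was lower against all WT in D234G (−0.73 ± 0.22, adjusted p = 0.0107), R873W (−0.96 ± 0.22, adjusted p = 0.0017) and Y874C (−0.62 ± 0.21, adjusted p = 0.0479). Against same-set WT those Cyp4g15 folds were −0.20, −0.43 and −0.084 (adjusted p of 0.483, 0.085 and 0.84). Cyp12d1-d and Cyp12d1-p are near-identical copies whose reads can be split between them, so their values are uncertain. Cyp12d1-p rose in JmjC heads by 1.12 ± 0.37 (adjusted p = 0.0274), and gave 0.97 without JmjC 1 (adjusted p = 0.122), 1.11 without JmjC 2 (adjusted p = 0.0798) and 1.00 without WT 5 (adjusted p = 0.0579). Cyp12d1-d was called in JmjC against same-set WT alone (adjusted p = 0.0418).

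The genes that serve P450 enzymes changed in few cases. Of 6 electron donor genes none rose or fell in A224T, D234G or Y874C heads. In R873W 2 of the 6 fell, Cyt-b5 with a log2 fold of −0.47 (adjusted p = 0.000255) and the ferredoxin gene Fdx2 with −0.73 (adjusted p = 6.17e-05). In JmjC the reductase gene Cpr rose by 0.40 (adjusted p = 0.00636) and the ferredoxin gene Fdx1 fell with −0.48 (adjusted p = 0.0398), and in L854F Cyt-b5-r rose by 0.63 (adjusted p = 0.00847). These last 3 calls depended on single libraries. The adjusted p against same-set WT was 0.0542, 0.0961, 0.14 and 0.0916 for Cpr without JmjC 1, JmjC 2, WT 4 and WT 5. It was 0.0621, 0.0847, 0.0952 and 0.0634 for Cyt-b5-r without L854F 1, L854F 2, WT 4 and WT 5, and for Fdx1 it was over 0.05 without any 1 library, up to 0.145 without JmjC 3.

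Of 9 heme genes found, the heme oxygenase gene Ho, which breaks heme down, rose by 1.15 in D234G (adjusted p = 1.19e-05). Coprox, an enzyme of heme synthesis, rose by 0.77 in JmjC (adjusted p = 0.00938) and fell in R873W with −0.87 (adjusted p = 0.00407). Smaller calls in JmjC were those of FeCH at 0.36 and Urod at −0.37. They were lost without JmjC 1 (adjusted p of 0.123 and 0.133 against same-set WT), among other libraries. Of 8 ecdysteroid synthesis genes with other symbols 4 were tested, and phtm was called in A224T at 0.83 (adjusted p = 0.0308, and 0.14 without A224T 1) and in JmjC at 0.95 (adjusted p = 0.00823, and 0.0682 against same-set WT without WT 5). Among 7 regulators of the response to foreign compounds, tgo, a partner of the aryl hydrocarbon receptor homologue, fell in D234G with −0.37 (adjusted p = 0.000119). Hr96, a nuclear receptor for xenobiotics, fell in R873W with −0.25 (adjusted p = 0.00384), and against same-set WT gave an adjusted p of 0.0539 without WT 2.

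In the neuronal experiment, the authors' deposited table gave knockdown against control for 13963 genes, 83 of them P450 genes. Its log2 changes and adjusted p carry no value per library, and it does not say which libraries made the RNA column. The labels name heads as the source and neurons as the cell type, so how much of that RNA came from cells other than neurons was not tested. One transcript stood for each gene, that with the highest mean count. By the adjusted p under 0.05 in the authors' deposited table, 8 P450 genes were higher and 10 lower of 82 in RNA, where 10.1% of all genes were higher and 10.7% lower. In ribosome footprints 7 were higher and 18 lower of 78 (7.21% and 17.9% of all genes), and in translation efficiency 5 were higher and 14 lower of 83 (9.62% and 17.2% of all genes), by the authors' deposited table. Of the 46 whose mean counts were at least 100 in both layers, 4 were higher and 9 lower in RNA (13.5% and 13.2% of all genes), 5 and 11 in footprints (11.8% and 14%) and 2 and 7 in efficiency (16.1% and 13.3%) in the authors' deposited table. Efficiency values there need not equal footprints less RNA. Cyp18a1 had −0.77 in RNA, −0.071 in footprints and −0.061 in efficiency, and Cyp4d20 −1.41, −1.15 and −1.22, in the authors' deposited table. Cyp4g1 had −6.32 in efficiency beside −0.60 and −0.93 in the authors' deposited table. Efficiency calls are therefore not read here as a layer separate from footprints.

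Cyp4d20 had log2 changes in the authors' deposited table of −1.41 in RNA (adjusted p = 2.77e-12) and −1.15 in footprints. The adjacent Cyp4ac1 and Cyp4ac2, at 2L:5264001-5265899 and 2L:5266392-5268455, were lower in RNA by −1.07 and −1.53 in the authors' deposited table. Cyp12a5, which fell in 4 strains of heads, was lower by −0.74 in RNA (adjusted p = 0.00589) and −0.83 in footprints in the authors' deposited table. Cyp12b2 and Cyp9b2, lower in D234G and R873W heads, were at −0.68 and −0.66 in RNA in that authors' deposited table. Of these, Cyp9b2 had risen in JmjC heads. Cyp4e3 at 1.01 and Cyp4c3 at 0.88 (adjusted p = 0.0015) were higher in RNA in the authors' deposited table, and Cyp4c3 had also risen in 3 strains of heads. Other genes went the opposite way to heads. Cyp4s3, which fell in A224T and JmjC heads, was higher in RNA at 0.35 (adjusted p = 0.0217) in the authors' deposited table. Cyp4g1 rose in JmjC, D234G and R873W heads, in calls that depended on single libraries. In the authors' deposited table it was at −0.60 in RNA (adjusted p = 0.0216) and −0.93 in footprints (adjusted p = 9.33e-07).

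Cyp12c1, Cyp6t3 and Cyp4d1 were not called in the RNA or the footprint column of the authors' deposited table. In RNA they were at 0.10 (adjusted p = 0.814), −0.62 (adjusted p = 0.0578) and −0.24 (adjusted p = 0.571), and in footprints at 0.018 (adjusted p = 0.959), 0.06 (adjusted p = 0.892) and −0.69 (adjusted p = 0.0682), in the authors' deposited table. Cyp4aa1 differed between the layers, with −1.34 in footprints (adjusted p = 5.6e-08) and −1.52 in translation efficiency (adjusted p = 2.3e-12) beside 0.21 in RNA (adjusted p = 0.153) in the authors' deposited table. Cyp313a1 had 0.46 in footprints and 0.49 in efficiency in the authors' deposited table. The authors' deposited table classed 56 of the 83 P450 genes as without change, 11 as buffered, 10 as changed in translation and 6 in mRNA abundance. Of the genes that failed the filter in heads, Cyp4d2, Cyp9c1 and Cyp4d14 had mean RNA counts of 1052, 324 and 284 in the authors' deposited table.

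**Figure D5:**
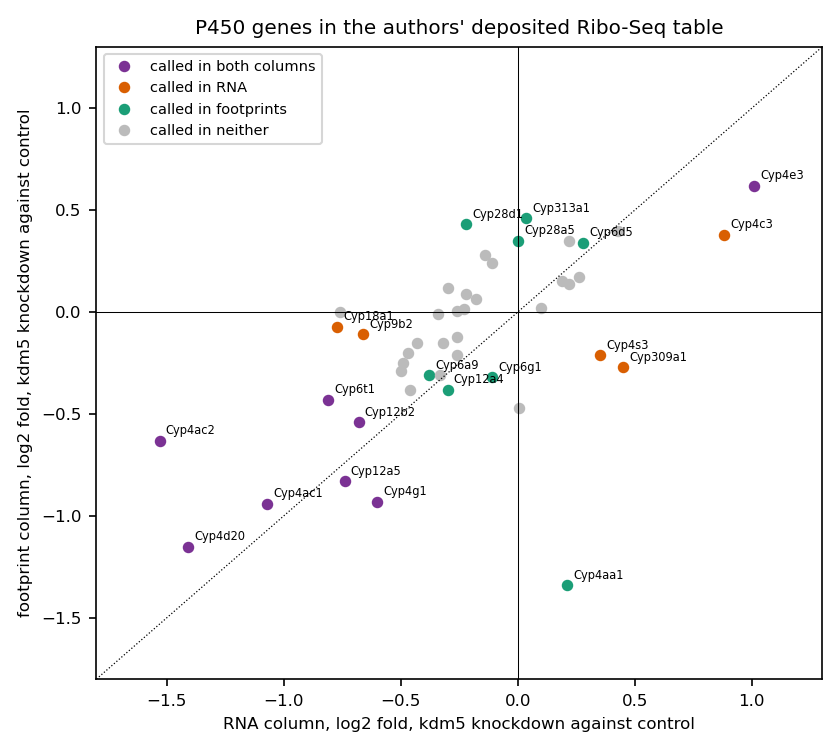
Log2 change in kdm5 knockdown against control neurons in RNA (x axis) and ribosome footprints (y axis) of the 46 P450 genes whose mean counts were at least 100 in both, from the authors' deposited table and coloured by which change was called; the dotted line marks equal change. Cyp4d20 lies at the lower left, Cyp4aa1 far below the line at 0.21 and −1.34, and Cyp4e3 at the right at 1.01.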

How the data were processed

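The head data were whole-number counts per gene and transposon insertion as deposited by the authors, with no normalization. Per the submitters' processing notes the tools were fastp, STAR, featureCounts and DESeq2 on dm6, and per the labels a stranded mRNA kit was used; no counting options are stated. Transposon rows, 0.764% to 1.52% of counts, were left out of library sizes and tests. For the neuronal experiment the authors deposited log2 changes, adjusted p-values and mean counts per transcript of knockdown against control; how the means were scaled is not stated, the log base is read from the named tool DESeq2, and the planned count test was not run since only this comparison table was used.

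Counts were fitted with edgeR 4.0.16 (R 4.3.3): TMM scaling, filterByExpr, and a quasi-likelihood F-test in a model of 7 groups over 23 libraries, or 8 groups with WT split by set (roX2 above or below 5 CPM), adjusted over 12093 genes at 0.05. CPM values are TMM-scaled. The fits were tested on simulated counts. Alternatives were DESeq2 1.42.0, library size scaling, no filter, a replicate block, fits of 2 groups and leaving out libraries. Members and lists were chosen with earlier results of these data known. Genes are named from up to 5 of the largest rises and falls per strain called in both comparisons at 1 CPM or more, up to 3 each way per strain pair and per WT set, the 10 highest levels and the called genes of the neuronal table; those that held when each library was left out, known-role genes and related lists are named beside them, after their values were seen. Levels are per kilobase of gene span, in place of the planned coding length. Coordinates are of the dm6 annotation. Single counts carry counting error only.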

Additional observations from a re-analysis of the deposited data

Results flagged for a closer look

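In groups of 4 or more libraries, which here is WT alone, 49 named P450 genes were checked for a library far from the other 4, and 3 were found, where chance gives about 1 in 20. Cyp6a19 was highest in WT 2, at 7.35 CPM. It overlaps Cyp6a9 by 397 bases on the opposite strand. Cyp6g1 was highest in WT 3, at 201 CPM, and Cyp6a18 in WT 5, at 0.0604 CPM, which is a single count.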

How the results depend on the processing

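With only WT and the strain in the fit, A224T had 10 calls against WT, L854F 5, D234G 25, R873W 19 and Y874C 10. DESeq2 called 11 between A224T and L854F. Without D234G 1 and 2, D234G had 28 calls against WT, 20 in both comparisons and 12 against R873W, and without D234G 1 and 3 it had 15, 10 and 9, with 5 against Y874C. In the neuronal table a mean count of 100 or more left 16 footprint and 9 efficiency calls, since fewer genes were tested. Leaving out each library in turn gave against WT 12 to 23 calls in A224T, 3 to 18 in L854F, 24 to 37 in JmjC, 32 to 46 in D234G, 28 to 37 in R873W and 13 to 28 in Y874C. It gave 1 to 6 between A224T and L854F, 5 to 14 between JmjC and A224T, 19 to 21 between JmjC and L854F, 15 to 23 between D234G and R873W, 16 to 25 between D234G and Y874C, 2 to 9 between Y874C and R873W and 25 to 35 between the WT sets. In both comparisons it gave 8 to 14 in A224T, 2 to 8 in L854F, 21 to 26 in JmjC, 18 to 26 in D234G, 12 to 21 in R873W and 5 to 9 in Y874C. The other counts under library size scaling, no filter, DESeq2 and same-set WT stayed within 1.5 times. Of the values of single genes under all alternatives, 3680 kept their side of the threshold and direction, 280 lost the call, 65 gained it and 4 changed sign. Without D234G 1 and 3, Cyp312a1 in D234G was −0.39 against WT, −0.42 against same-set WT and −0.19 against Y874C. Cyp4g1 and Cyp6a18 had 0 counts in the library then left and got no fold, nor did other Cyp6a18 comparisons with 0 counts on a side. With 3 counts as the floor of that library, Cyp4g1 was at least 19.2-fold lower than the WT mean. Cyp6a19 in WT of set 2 against set 1 was −4.38 without WT 1 and 2.60 without WT 2. In that D234G fit the lone library is assumed to vary like the other groups. The causes of these shifts were not tested.

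Replicate numbers did not pair the libraries: over 63 pairs with the same number the correlation of deviations was −0.601 to 0.197, and 4 were over 0.1. With a replicate block the calls against WT were 20 in A224T, 15 in L854F, 28 in JmjC, 35 in D234G, 36 in R873W and 18 in Y874C. Depth limits D234G 1 and D234G 2, where 3 counts are 0.781 and 0.613 CPM, against 0.155 to 0.181 CPM in WT.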
